A study of Mus musculus with 375 samples.

Results

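The genes described here are 9 enzymes of nucleotide supply and removal, Tk1, Rrm1, Rrm2, Tyms, Dut, Tk2, Rrm2b, Dck and Samhd1, taken by name from the 23420 gene rows of a single-cell table of TPM, a transcript level scaled for length and for the total of each cell. All 9 were in the table. Mouse small intestinal cells, sorted for Lgr5, were sequenced one by one with Smart-seq2, a plate-based method that copies full-length cDNA. A high-fat diet (HFD) had been fed to the mice behind the sets HFD 1 and HFD 2, and a control diet to those behind control 1 and control 2. No source used here gives strain, age, length of feeding, the reagent behind the Lgr5 sort or whether a set is 1 mouse. Cells with at least 2000 genes above TPM 0 were kept, which left 91 and 92 HFD cells and 93 and 91 control cells, 367 of 375. Sets, not cells, were the replicates (2 per diet), so that any error covers only the spread between these sets, which may be technical. Each SE of a log2 difference was moderated, that is, drawn towards a trend of spread with level over all genes. It is thus not the spread of that gene alone.

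Measured values entered the choice of genes: Tk2 was chosen by its diet difference. It was among the genes that a comparison of the diets in these same cells calls, and the other 8 act in cytosolic or mitochondrial nucleotide supply and breakdown. The diet values below are therefore descriptions, and Tk2 carries no test.

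DNA synthesis needs the 4 deoxynucleotides, and a cell has separate supplies for the nucleus and for mitochondria. In a dividing cell ribonucleotide reductase, a pairing of the large subunit Rrm1 with the small subunit Rrm2, makes deoxynucleotides in the cytosol, thymidylate synthase (Tyms) and the salvage enzyme thymidine kinase 1 (Tk1) supply thymidylate, and dUTPase (Dut) clears dUTP and yields the precursor that Tyms uses. These genes are textbook targets of the E2F factors that open S phase. Mitochondrial DNA is copied in resting cells as well. Mitochondria draw on their own thymidine kinase 2 (Tk2) and deoxyguanosine kinase (Dguok) and on reductase with the alternative small subunit Rrm2b, a p53 target. Deoxycytidine kinase (Dck) salvages deoxycytidine in the cytosol, and Samhd1 breaks deoxynucleotides down. The crypt base, where Lgr5-positive stem cells sit, is one of the fastest dividing tissues of the adult.

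Upstream sequences are shown for both subunits of the replicative reductase, which vary together across cells below, and for the cytosolic and the mitochondrial thymidine kinase, which do not. Each holds the 250 bases before the RefSeq start site, on build GRCm38.p6 and in the direction of the gene. Capitals mark exact matches to a CCAAT box (CCAAT), a GC box (GGGCGG) or a CHR element (TTTGAA or TTCGAA) on either strand, with no overlap between matches. The Tk1 window is chr11:117826015-117826264 (minus strand), that of Tk2 is chr8:104248559-104248808 (minus), that of Rrm1 is chr7:102441445-102441694 (plus) and that of Rrm2 is chr12:24708004-24708253 (plus).
Rrm1: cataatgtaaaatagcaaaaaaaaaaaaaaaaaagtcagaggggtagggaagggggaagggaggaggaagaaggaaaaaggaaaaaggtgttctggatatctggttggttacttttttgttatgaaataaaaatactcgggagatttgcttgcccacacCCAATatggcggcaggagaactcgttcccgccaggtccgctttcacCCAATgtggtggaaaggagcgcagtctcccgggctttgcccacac
Rrm2: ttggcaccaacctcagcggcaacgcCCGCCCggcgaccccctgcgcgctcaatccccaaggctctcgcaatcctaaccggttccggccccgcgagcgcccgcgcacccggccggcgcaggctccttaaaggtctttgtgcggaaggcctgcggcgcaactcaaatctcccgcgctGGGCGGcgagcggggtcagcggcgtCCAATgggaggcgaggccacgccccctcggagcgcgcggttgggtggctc
Tk1: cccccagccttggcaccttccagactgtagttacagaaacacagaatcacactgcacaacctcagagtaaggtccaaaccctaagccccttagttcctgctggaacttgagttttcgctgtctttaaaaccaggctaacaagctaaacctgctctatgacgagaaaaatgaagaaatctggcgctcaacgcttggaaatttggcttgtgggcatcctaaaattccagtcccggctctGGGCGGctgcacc
Tk2: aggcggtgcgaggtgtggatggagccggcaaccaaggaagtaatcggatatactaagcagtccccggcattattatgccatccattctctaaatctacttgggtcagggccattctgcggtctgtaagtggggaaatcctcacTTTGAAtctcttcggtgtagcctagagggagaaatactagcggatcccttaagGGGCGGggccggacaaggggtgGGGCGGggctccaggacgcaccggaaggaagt
Rrm1 had 2 CCAAT boxes, which start 91 and 45 bases before the start site, and Rrm2 had 1, at 50 bases, whereas neither thymidine kinase had one. A CCAAT box was found in 33.9% of the 32851 windows of this length in the table, a GC box in 32.7% and a CHR element in 17.1%. Rrm2 and Tk2 had 2 GC boxes each, Tk1 had 1 and Rrm1 none, and Tk2 had the 1 CHR element found among the 4 windows. None of the 4 windows held an E2F site spelled TTTCCCGC, TTTGGCGC, TTTCGCGC or TTTGCCGC on either strand, which 1.86% of all windows held. These letters are absent from these windows, and nothing about the factors follows. RefSeq windows were found for 8 of the 9 genes, all but Rrm2b.

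The sorted cells carried their labelled marker. Lgr5 was at 1 TPM or more in 95.6% and 94.6% of HFD cells and in 95.7% and 93.4% of control cells, and the epithelial marker Epcam was found in every passing cell. Ptprc (CD45), carried by leukocytes, reached 1 TPM in 0 of 91 and 1 of 92 HFD cells and in 0 of 93 and 0 of 91 control cells. The summed mean level of 13 leukocyte markers was 3.26 to 4.21 TPM in the HFD sets and 3.53 to 4.46 TPM in the control sets. Summed Paneth cell markers (11 of 11 measured, none at 0 in every set) stood at 469 to 4962 TPM in the HFD sets and at 36.2 to 71.8 TPM in the control sets, and summed S phase genes (40 of 40) at 2517 to 2797 TPM in the HFD sets and at 1644 to 1808 TPM in the control sets. Summed enterocyte markers (11 of 11) stood at 1227 and 1390 TPM in the HFD sets and at 650 and 786 TPM in the control sets, and summed tuft cell markers (7 of 8 in the table) at 1.99 and 0.853 TPM in the HFD sets and at 3.93 and 3.85 TPM in the control sets. Summed stem cell markers (12 of 12) stood at 11181 and 13687 TPM in the HFD sets and at 8581 and 10929 TPM in the control sets, and summed goblet cell markers (9 of 9) at 715 and 585 TPM in the HFD sets and at 519 and 69.2 TPM in the control sets. Summed enteroendocrine markers (9 of 9, with Neurod1, Gcg and Gip at 0) stood at 12.8 and 5.21 TPM in the HFD sets and at 3.82 and 1.87 TPM in the control sets, and stromal markers (9 of 9) at 1.1 TPM or less in every set. The part of any of these lists in the results below was not tested except where a value is given. Medians of 6857 and 6348.5 genes were detected per HFD cell, against 6895 and 6130 per control cell. Of all TPM, the rRNA precursor Rn45s made up 26.9% and 18.6% in the HFD sets and 39.1% and 24.6% in the control sets. The depth is unknown, since TPM does not keep it, and a level listed at 0 may be a transcript that was missed.

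The 9 genes spanned about 2 orders of magnitude on the TPM scale. Averaged over the 4 sets, Tk1 stood at 99.6 ± 21.1 TPM (SD, n = 4 sets) and Rrm1 at 93.0 ± 23.3 TPM, above 91.5% and 90.7% of the 11667 genes that passed the filter on low levels. Dut followed at 56.9 ± 20.2 TPM, Tyms at 50.6 ± 17.6 TPM and Rrm2 at 45.9 ± 14.9 TPM. Neighbours in this order from Tk1 down to Rrm2 had overlapping ranges over sets. Dck, at 20.8 ± 1.96 TPM, lay below every set of Rrm2, and Samhd1, at 8.90 ± 0.988 TPM, below every set of Dck. Samhd1 and Tk2 (6.92 ± 5.26 TPM) overlapped, and Rrm2b, at 1.05 ± 0.209 TPM, was lowest, barely above the filter of 1 TPM that all 9 passed. The 5 replication enzymes together held 378 and 441 TPM in the HFD sets and 248 and 318 TPM in the control sets, while Tk2, Rrm2b, Dck and Samhd1 together held 34.0 and 34.2 TPM in the HFD sets and 42.3 and 40.4 TPM in the control sets.

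**Figure D1:**
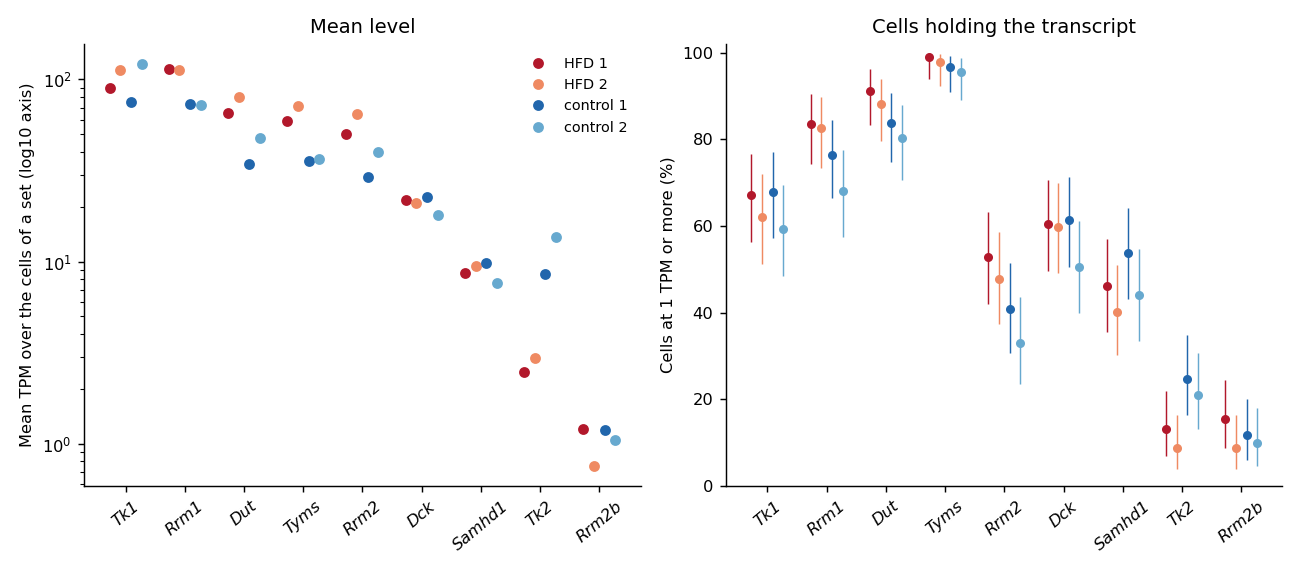
Mean level (TPM, log axis) and share of cells at 1 TPM or more (%, bars are exact 95% binomial intervals) of each gene, 1 point per set, genes in order of mean level. Tk2 is the gene whose 2 HFD sets, at 2.47 and 2.97 TPM, sit below both control sets, at 8.60 and 13.6 TPM; Rrm1, Dut, Tyms and Rrm2 show both HFD sets above both control sets.

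Tk2, the mitochondrial kinase (chromosome 8, 104226685 to 104248558, minus strand, GRCm38), was scarce and lower in HFD cells. It averaged 2.47 and 2.97 TPM in HFD 1 and HFD 2, against 8.60 and 13.6 TPM in control 1 and control 2. Both HFD sets lay below both control sets, and the ratio of the diet means was 0.245. The difference was −1.67 (SE 0.38) on the log2(mean TPM + 1) scale, where the added 1 shrinks differences of low genes, or −1.80 relative to the median of all genes tested, which was 0.125.

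Fewer HFD than control cells held Tk2, and the median level in cells that held it was lower in the HFD sets. Tk2 was at 1 TPM or more in 12 of 91 cells of HFD 1 (13.2%, exact 95% interval 7.0 to 21.9%) and 8 of 92 cells of HFD 2 (8.70%, 3.83 to 16.4%). In control 1 it was found in 23 of 93 cells (24.7%, 16.4 to 34.8%) and in control 2 in 19 of 91 (20.9%, 13.1 to 30.7%). The HFD minus control difference in share was −11.9 percentage points, against an SD between sets, pooled over the diets, of 2.96. These intervals cover counting error only. Among cells that held Tk2, the median level was 16.3 and 19.5 TPM in the HFD sets and 32.2 and 52.3 TPM in the control sets. On a log2 scale the mean in those cells was 3.55 and 4.04 in HFD 1 and HFD 2 and 4.05 and 5.33 in control 1 and control 2. HFD 2 and control 1 were thus nearly equal. The diets differed by −0.90 on this scale, against a pooled SD of 0.68. A few cells carried much of each mean: the top 3 cells of HFD 2 held 80.3% of that set's Tk2, against 52.3% in HFD 1 and 33.4% and 36.9% in the control sets. Levels above 50 TPM were seen in 2 of 183 HFD cells and in 18 of 184 control cells. Without the highest cell of every set the means were 1.97 and 1.85 TPM in HFD cells, against 7.46 and 11.3 TPM in control cells. At least 3 Paneth markers reached 10 TPM in 18 and 12 HFD cells and in 7 and 2 control cells, and without those cells the log2 difference of Tk2 was −1.74.

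**Figure D2:**
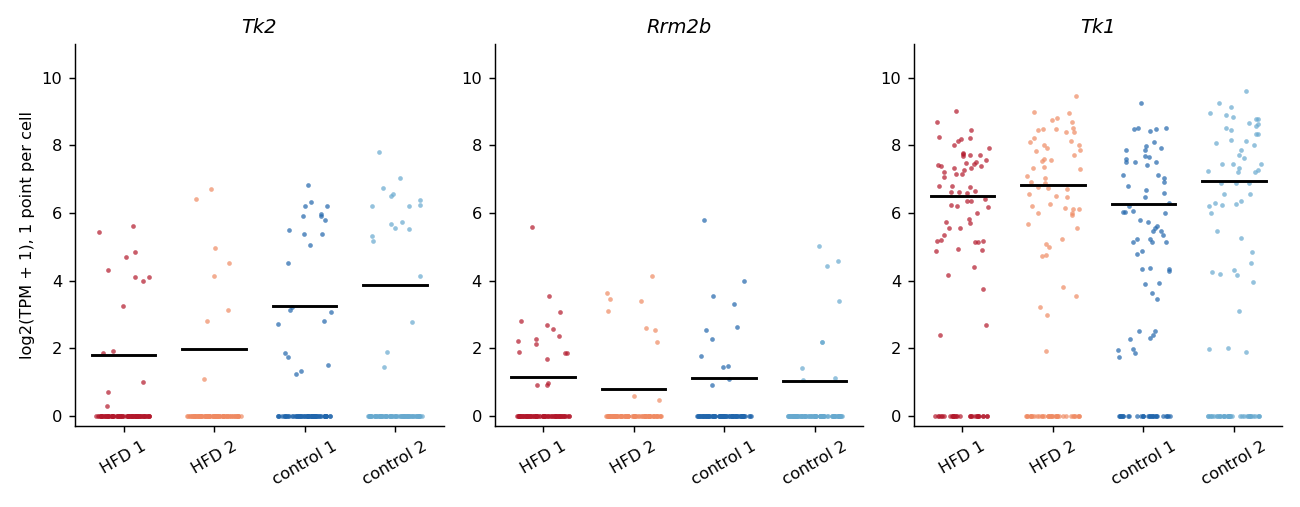
Level in each cell, as log2(TPM + 1), for Tk2, Rrm2b and Tk1, 1 point per cell and the set mean as a black line (log2 of the mean TPM + 1). Most cells are listed at 0 for Tk2 and Rrm2b; cells above 50 TPM of Tk2 number 2 on the HFD and 18 on the control diet, while Tk1 fills the same range in all 4 sets.

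Rrm2b, the small subunit that serves resting cells and mitochondria (chromosome 15, 37923952 to 37961318, minus strand), was near the limit of measurement. It averaged 1.2 and 0.756 TPM in the HFD sets, against 1.2 and 1.05 TPM in the control sets, and was found in 14 and 8 HFD cells and in 11 and 9 control cells. The groups overlapped, with a log2 difference of −0.11 (SE 0.51). A processed pseudogene, Gm3362, lies within the annotated span of Rrm2b on the same strand, and its reads were not separated here. Dguok, the purine partner of Tk2 in mitochondria, stood at 50.04 and 50.11 TPM in the HFD sets and at 43.4 and 49.6 TPM in the control sets (log2 0.11, SE 0.25, limma adjusted p = 0.910), far above Tk2 in every set: the ratio of Dguok to Tk2 was 20.3 and 16.8 in HFD cells and 5.05 and 3.64 in control cells.

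The replicative reductase had higher values in HFD cells without passing the test. Rrm1 (chromosome 7, 102441695 to 102469771, plus strand) averaged 114 and 112 TPM in the HFD sets, against 73.3 and 72.5 TPM in the control sets. Replicate sets lay within 2 TPM of each other, and the groups did not overlap (log2 0.63, SE 0.24). Rrm2, the subunit whose supply sets reductase activity through the cell cycle (chromosome 12, 24708241 to 24714146, plus strand), averaged 50.1 and 64.3 TPM in the HFD sets, against 29.2 and 40.2 TPM in the control sets (log2 0.71, SE 0.26). It was found in 52.7% and 47.8% of HFD cells and in 40.9% and 33.0% of control cells. Rrm1 exceeded Rrm2 in every set, by 2.28 and 1.75 times in HFD cells and 2.51 and 1.80 times in control cells, and Rrm2 exceeded Rrm2b by 41.6 and 85.0 times in HFD cells, against 24.4 and 38.3 times in control cells.

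The thymidylate enzymes split. Tyms (chromosome 5, 30058202 to 30073617, minus strand) was found in nearly every cell, in 98.9% and 97.8% of HFD cells and in 96.8% and 95.6% of control cells. Its mean was 58.9 and 71.4 TPM in the HFD sets, against 35.5 and 36.5 TPM in the control sets (log2 0.83, SE 0.25). At 5 TPM or more it was found in 93.4% and 93.5% of HFD cells and in 80.6% and 83.5% of control cells. A change of level in each cell and a change in the mix of cells were not separated here. The annotation lists a Tyms pseudogene, Tyms-ps, which could share reads with it. Dut (chromosome 2, 125247190 to 125258608, plus strand) averaged 65.2 and 80.4 TPM in the HFD sets, against 34.2 and 47.8 TPM in the control sets (log2 0.82, SE 0.26). Its nuclear and mitochondrial forms come from one gene and are summed in this table.

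Tk1, the cytosolic thymidine kinase (chromosome 11, 117815526 to 117826092, minus strand), did not share this pattern. It averaged 89.2 and 112 TPM in the HFD sets, against 75.3 and 121 TPM in the control sets, and the control sets enclosed the HFD sets. Its log2 difference was 0.066 (SE 0.26), or −0.060 relative to all genes, and its sign turned when Rn45s was removed before rescaling (−0.12) and with median-ratio scaling (−0.070). It was found in 67.03% and 62.0% of HFD cells and in 67.7% and 59.3% of control cells. Afmid overlaps Tk1 on the opposite strand, and whether counting used strand is not stated, so reads in the overlap cannot be told apart. The ratio of Tk1 to Tk2 was 36.1 and 37.8 in HFD cells and 8.76 and 8.91 in control cells.

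Dck and Samhd1 stood at similar levels on both diets. Dck (chromosome 5, 88764996 to 88783281, plus strand) averaged 21.7 and 21 TPM in the HFD sets, against 22.6 and 18.1 TPM in the control sets (log2 0.073, SE 0.28). Samhd1, which removes deoxynucleotides (chromosome 2, 157097533 to 157135265, minus strand), averaged 8.66 and 9.50 TPM in the HFD sets, against 9.83 and 7.62 TPM in the control sets (log2 0.060, SE 0.34). The diets overlapped for both genes, and both signs turned with Rn45s left out (−0.089 for Dck and −0.10 for Samhd1) and with median-ratio scaling (−0.058 and −0.063). Samhd1 is known for its abundance in myeloid cells. Here it was found in 46.2% and 40.2% of HFD cells and in 53.8% and 44.0% of control cells, while Ptprc was found in 1 cell of 367.

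In the fit across all genes (limma with a mean-variance trend, two-sided, Benjamini-Hochberg adjusted p under 0.05), 1 of the 9 genes was called, Tk2, which had been chosen for it, where 0.506% of 11667 tested genes were called in either direction 0.369% as higher and 0.137% as lower in HFD cells. Nothing is read from that count, which was 0 without HFD 1 and without control 2. The other 8 did not pass, with limma adjusted p between 0.200 for Tyms and 0.966 for Samhd1. With the set number as a block, 5 members were called, 4 of them as higher (Rrm1, Rrm2, Tyms and Dut), where 5.44% of all genes were called and 4.70% as higher, but nothing in the labels pairs equal numbers across diets. Both HFD sets stood above both control sets for 4 of the 5 replication enzymes, all but Tk1, where 29.5% of all tested genes did, and both stood below for Tk2, where 12.3% did. The 5 replication enzymes had a median log2 difference of 0.71 against 0.125 for all genes, and the other 4 one of −0.024. More cells with a transcript and more transcript per cell cannot be told apart in a set mean, nor can fewer cells and less transcript, so the members were next placed by cell cycle.

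**Figure D3:**
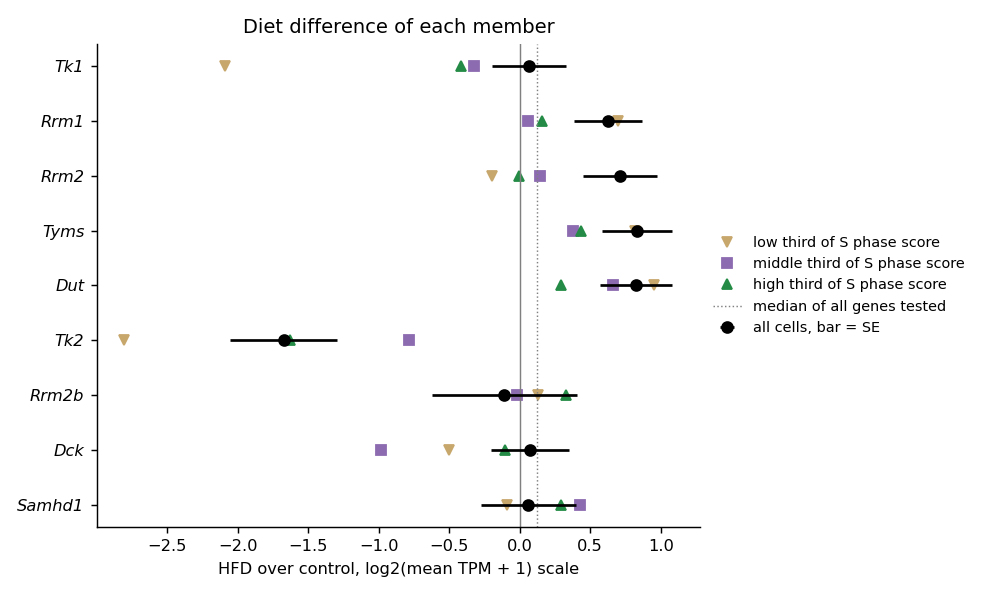
HFD over control difference on the log2(mean TPM + 1) scale, over all cells (black, bar is the SE from limma) and within cells of low, middle and high S phase score (coloured, no error drawn). Tk2 lies left of 0 in all 4 readings, from −2.80 to −0.79, and Rrm2 stands at 0.71 over all cells but between −0.20 and 0.14 within score classes. Within these classes Rrm1 stands between 0.062 and 0.70, Tyms between 0.38 and 0.81 and Dut between 0.29 and 0.95. With cut points drawn within each set Rrm2 differed by 0.55 to 1.56.

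Each cell was given an S phase score, the mean log2(TPM + 1) of 40 S phase genes that include none of the 9, and cells were split at the 2 cut points that make 3 classes of equal size over all cells. A class of this kind is a range, not a cell type, and 23 of 367 cells lay within 0.1 of a cut. Low-score cells were 25.3% and 19.6% of the HFD sets, against 38.7% and 50.5% of the control sets, and high-score cells 42.9% and 41.3%, against 25.8% and 23.1%. Median genes detected were 5774, 6732 and 6987 in low-, middle- and high-score cells, so detection also grew along the score. No test was run across classes, since cells were placed in them by measured values.

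Rrm2 showed the steepest gradient of the 9. It averaged 1.40, 20.2 and 118 TPM in low-, middle- and high-score cells (mean of the 4 sets), and was found in 8.67%, 43.2% and 78.0% of them. Rrm2 was listed at 0 in all 18 low-score cells of HFD 2. High-score minus low-score differences on the log2 scale were 5.78 ± 1.14 for Rrm2 (SD, n = 4 sets), 4.19 ± 1.49 for Tk1, 2.89 ± 0.50 for Rrm1, 1.95 ± 0.22 for Tyms and 1.67 ± 0.40 for Dut, each positive in all 4 sets. In low-score cells Rrm1, Tyms and Dut averaged 23.7, 21.6 and 29.2 TPM and Tk1 14.6 TPM, against 1.40 TPM for Rrm2.

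Dck ran with the replication enzymes and not with the mitochondrial ones. It averaged 4.55, 19.5 and 39.6 TPM in low-, middle- and high-score cells, was found in 18.7%, 66.2% and 89.0% of them, and had a difference of 3.08 ± 1.16, positive in all 4 sets. Rrm2b and Samhd1 had lower mean levels in high-score cells. Rrm2b averaged 1.23, 1.71 and 0.131 TPM, with a difference of −0.97 ± 0.27, negative in all 4 sets, and was listed below 1 TPM in every high-score control cell. Samhd1 averaged 10.3, 9.15 and 6.88 TPM, with a difference of −0.58 ± 0.55, also negative in all 4 sets. Its share of cells did not follow its mean: it was found in 39.9%, 53.9% and 42.0% of low-, middle- and high-score cells.

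Tk2 showed no gradient with the score. It was found in 16.5%, 17.7% and 16.4% of low-, middle- and high-score cells, at 7.92, 5.53 and 5.98 TPM, and its difference of −0.048 ± 0.84 was positive in 2 sets of 4. With cut points drawn within each set the difference was −0.68 ± 0.91, positive in 1 set of 4. Within each class the HFD sets lay below the control sets. Tk2 was chosen by this difference in the same cells, so the order within classes is no independent result. The share of all genes in this order was not computed within classes. Low-score cells averaged 2.35 and 0.434 TPM in HFD 1 and HFD 2, against 12.2 and 16.7 TPM in control 1 and control 2. Middle-score cells averaged 2.45 and 5.42 TPM in the HFD sets, against 7.01 and 7.24 TPM in the control sets, and high-score cells 2.55 and 1.86 TPM, against 5.42 and 14.1 TPM. The HFD sets held Tk2 in only 3 of 23 and 1 of 18 low-score cells, against 10 of 36 and 9 of 46 in the control sets, so these class means rest on few cells.

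**Figure D4:**
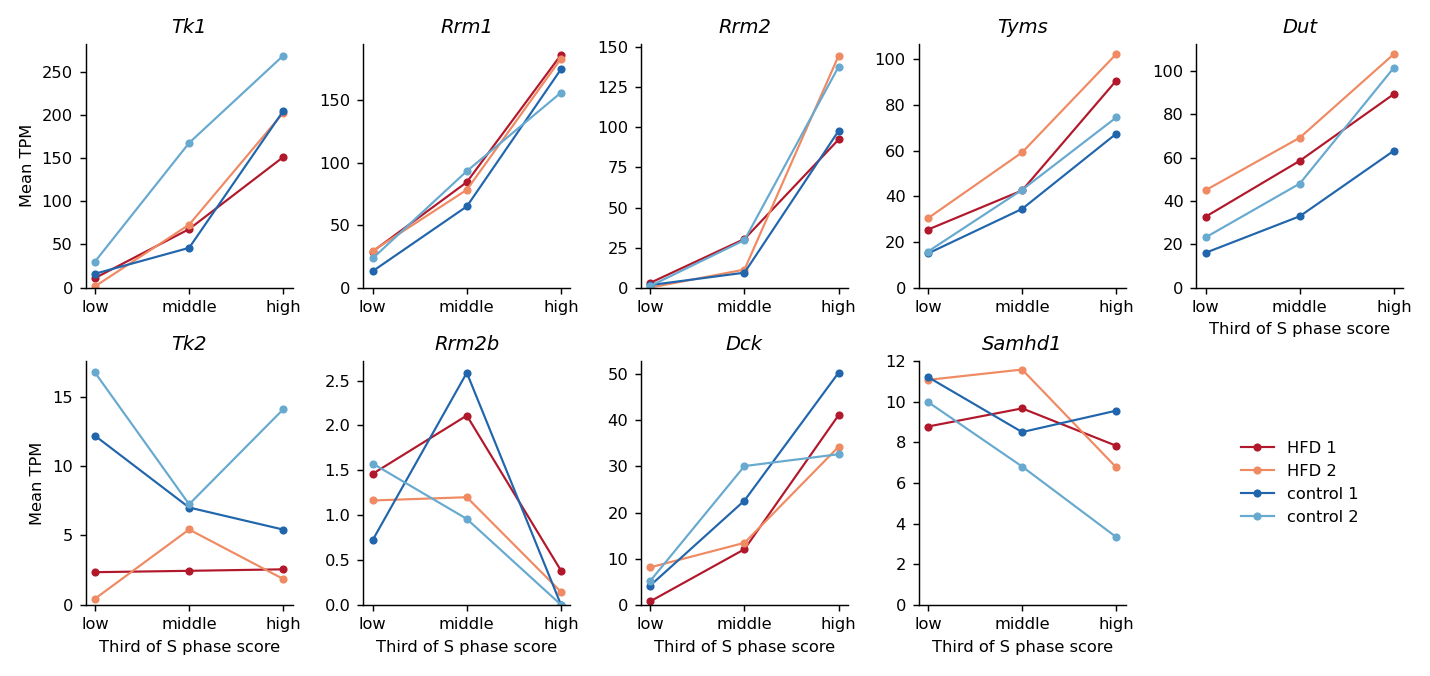
Mean TPM of each gene in cells of low, middle and high S phase score, 1 line per set, each panel with its own axis from 0. The 5 replication enzymes and Dck climb with the score in all 4 sets, Rrm2b and Samhd1 end lower in high-score cells, and Tk2 has no common slope.

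For Rrm1, Rrm2, Tyms and Dut the diet difference within score classes was mostly smaller than over all cells. Rrm2 differed by −0.20, 0.14 and −0.0060 on the log2 scale in low-, middle- and high-score cells, with overlapping sets in each, and Rrm1 by 0.70, 0.062 and 0.16. Tyms differed by 0.81, 0.38 and 0.44 and Dut by 0.95, 0.66 and 0.29. Both HFD sets lay above both control sets for Rrm1 and Tyms in low- and high-score cells. For Dut they did so in low- and middle-score cells. Tk1 differed by −2.09, −0.32 and −0.42, with both HFD sets below both control sets in low- and high-score cells. With cut points drawn within each set, so that a class spans different scores in each set, Rrm2 differed by 1.56, 1.48 and 0.55 and Tk1 by 0.42, 0.27 and −0.033. Rrm1 then differed by 1.75, 0.66 and 0.47, Tyms by 1.47, 0.78 and 0.69 and Dut by 1.34, 1.07 and 0.50. In each of these classes both HFD sets lay above both control sets for Rrm1, Rrm2, Tyms and Dut. For Tk1 they did so only in low-score cells. The S phase score and the diet moved together here, and the part of the score in the differences over all cells was not tested. Over all cells, both HFD sets lay above both control sets for 29.5% of all tested genes and below for 12.3%. No such share was computed within classes, so the orders given by class have no background to be read against.

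Along the G2/M score, from 54 genes with none of the 9 among them, Tk1 rose more than Dut, as along the S phase score. Of the other replication enzymes, Rrm2 had a high minus low difference of 4.77, Rrm1 of 2.63 and Tyms of 1.76. Genes detected also grew with the G2/M score (Pearson's r = 0.67 over 367 cells). Tk1 averaged 9.05, 85.1 and 211 TPM in cells of low, middle and high G2/M score, with a high minus low difference of 4.47 ± 0.54, against 0.86 ± 0.10 for Dut, which averaged 37.4, 68.1 and 67.4 TPM. Cells low in both scores (76 cells) held 0.191 TPM of Rrm2 and 5.43 TPM of Tk1, and cells high in both (56 cells) held 182 TPM of Rrm2 and 279 TPM of Tk1. Tk2 averaged 11.7 TPM in cells low in both scores and 2.57 TPM in cells high in both, but was found in like shares of them, 18.4% and 17.9%. In the 18 cells low in S phase score and high in G2/M score it averaged 14.1 TPM, and few cells carry each of these means. Samhd1 averaged 11.2 TPM in cells low in both scores and 4.93 TPM in cells high in both, and was found in 46.1% and 39.3% of them. Sets are pooled in these classes, and 82 of the 123 cells low in S phase score were control cells, where Tk2 was higher.

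Cell by cell, with each set's mean removed, the 5 replication enzymes varied together and Tk2 did not join them. The 10 pairs among them had Pearson's r of 0.33 (Tyms and Dut) to 0.63 (Tk1 and Rrm2) over 367 cells, with a median of 0.51. The cells share sets, depth and genes detected, and over the 183 cells in the middle range of genes detected the median was 0.32. Dck had r between 0.36 and 0.49 with the 5, and 0.62 with the S phase score. Tk2 had r between −0.074 and 0.057 with the 5, −0.046 with the S phase score and 0.029 with genes detected. Within sets its median r with the 5 was 0.12 in HFD 1, −0.038 in HFD 2, −0.10 in control 1 and −0.0077 in control 2. Rrm2b had r between −0.16 and −0.046 with the 5. Tk2 and Rrm2b, both of mitochondrial supply, had r of −0.015 with each other, where so few cells hold either transcript that a weak value says little.

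**Figure D5:**
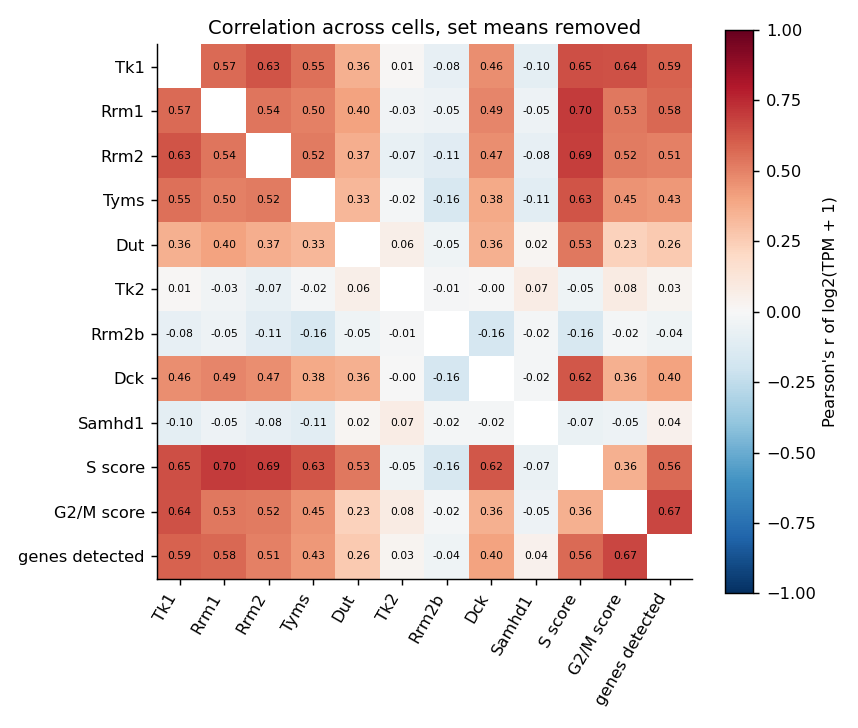
Pearson's r of log2(TPM + 1) between genes, and with the S phase score, the G2/M score and genes detected, over 367 cells after removal of set means. The block of Tk1, Rrm1, Rrm2, Tyms, Dut and Dck runs from 0.33 to 0.63, and Tk2, Rrm2b and Samhd1 lie between −0.16 and 0.057 with that block.

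Among 11067 genes at 1 TPM or more in at least 10% of cells, those most like Rrm2 were 2810417H13Rik (r = 0.67), E2f8 (0.66), a repressor of the E2F family, and Ncapg2 (0.65), a condensin subunit. Those most like Tk1 were 2810417H13Rik (0.69), the condensin subunit Smc2 (0.68) and Top2a (0.68), the topoisomerase of mitotic chromosomes. Dck was most like Uhrf1 (0.54), which guides methylation of newly copied DNA, Brca1 (0.51), a repair factor, and Ncapg2 (0.50). For Tk2 the highest values were D14Abb1e, Tulp4 and Sypl2, each at r = 0.20, for Rrm2b Orc3 (0.23), Ing3 (0.23) and Kdm5b (0.21), and for Samhd1 Mon1b (0.22), Gm16973 (0.21) and 5033406O09Rik (0.20). For these 3 genes even the best of 11067 values stayed under 0.24. Tk2 and Rrm2b were found in 16.9% and 11.4% of cells, and in such sparse values a weak correlation is no finding. Samhd1 was found in 46.0% of cells, against 43.6% for Rrm2, and the reason for its low values was not tested.

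The rest of the pathway was read in the same limma fit, with members of these lists counted beside those of all genes tested. None of 14 genes of the thymidylate and folate cycle passed, with a median log2 difference of 0.38 against 0.125 for all genes. Mthfd2, a mitochondrial folate enzyme, had 0.80 (SE 0.27) and Dctd, the dCMP deaminase that feeds Tyms, 0.67 (SE 0.27). Dtymk, which turns the product of Tyms and both thymidine kinases into dTDP, had 0.34 (SE 0.24, limma adjusted p = 0.632).

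None of 17 genes of new purine and pyrimidine synthesis passed (median 0.39), led by Gart at 0.62 and Ppat at 0.66, both of purine synthesis, and Umps at 0.51, of pyrimidine synthesis. None of 23 other salvage genes and kinases passed (median 0.34), with Nme1, a nucleoside diphosphate kinase, at 0.76, Cmpk1, the UMP and CMP kinase, at 0.69 and Upp1, a uridine phosphorylase, at 0.77. Of 19 genes of nucleotide breakdown and pool cleaning none passed (median 0.27), with Nt5e, an ecto-nucleotidase found in 3.81% of cells, at 1.52, Itpa, which clears deaminated purines, at 0.67 and Dpyd, which degrades pyrimidines, at −0.60. Limma adjusted p in these 3 lists was 0.248 or more. Before adjustment, 2 of 17, 4 of 23 and 4 of 19 had p under 0.05, and 1294 of all 11667 genes did.

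Genes of mitochondrial DNA upkeep other than Tk2 gave a mixed picture. None of 34 passed, with a median of 0.17, close to that of all genes. An unadjusted p under 0.05 was seen for 4 of the 34, a share near that of all genes (1294 of 11667). Fen1, a flap nuclease that also serves nuclear replication, averaged 71.8 and 85.5 TPM in the HFD sets, against 42.2 and 42.9 TPM in the control sets (log2 0.86, SE 0.25, limma adjusted p = 0.158). Slc25a36, a mitochondrial carrier of pyrimidine nucleotides, averaged 23.6 and 28.4 TPM in the HFD sets, against 42.9 and 39.7 TPM in the control sets, and both HFD sets lay below both control sets (log2 −0.65, SE 0.26, limma adjusted p = 0.359). Abat, an aminotransferase of mitochondria, had −0.72 (SE 0.31). Polg, the mitochondrial DNA polymerase, had −0.044 (SE 0.31), and Tfam, which packages mitochondrial DNA, 0.32 (SE 0.26). Of 9 nucleoside and nucleotide transporters none passed (median 0.019). Slc25a4, the ADP/ATP carrier, had 0.67 and Slc25a33, a second pyrimidine carrier, 0.85.

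The lists of cell cycle genes and of p53 and its targets held no passing gene either. None of 26 E2F and MuvB regulators passed (median 0.27). E2f1 averaged 8.10 and 8.45 TPM in the HFD sets, against 6.65 and 5.37 TPM in the control sets (log2 0.41, SE 0.35), and Ccne1, the cyclin that starts S phase, 18.7 and 26.3 TPM, against 5.08 and 12.8 TPM (log2 1.34, SE 0.35, limma adjusted p = 0.114). Rbbp4 had 0.80 and Cdk2 0.71. None of 22 p53 genes and targets passed (median 0.17), among them Sesn1 at 0.81, Aen at 0.59, Gdf15 at 0.97 and Cdkn1a, the cell cycle inhibitor, at 0.63 (SE 0.46). None of 40 S phase genes passed (median 0.54). An unadjusted p under 0.05 was seen for 18 of them, against 1294 of all 11667 genes, and both HFD sets stood above both control sets for 34, against 29.5% of all genes. Slbp (1.02, SE 0.25, limma adjusted p = 0.0612), Pcna (0.98) and Pold3 (0.99) led this list. None of 54 G2/M genes passed (median 0.19), with Mki67 at −0.10, Cks1b at 0.60, Cks2 at 0.54 and Fam64a at −1.21.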

How the data were processed

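Smart-seq2 libraries of single cells sorted as Lgr5-positive were measured in 375 cells of 4 sets. The deposited values are TPM, made by the authors with Bowtie2 and RSEM against mm10 per the submitters' processing notes; no source used here gives versions, annotation, strand setting or filters. Cells needed 2000 genes above TPM 0. TPM was averaged over the cells of a set, and limma 3.58.1 (R 4.3.3) with a mean-variance trend was fitted to log2(mean TPM + 1) for the 11667 genes averaging 1 TPM or more, 2 HFD sets against 2 control sets, two-sided (Benjamini-Hochberg adjusted p, threshold 0.05). With 4 sets, an exact permutation test cannot go below p = 0.333, so none was run on single values. A cell held a transcript at 1 TPM or more, with Clopper-Pearson 95% intervals for shares. TPM has the same sum in every cell, so a change in one abundant RNA moves all others, and depth is unknown. Coordinates are from GENCODE M21 (GRCm38), 1-based, and sequences from RefSeq (GRCm38.p6). No 2 cells had identical values. The limma and correlation steps were tested on simulated data. The genes, the lists and the tests were chosen with earlier results of these data known. Named are all 9 genes, partners fixed by name, the 3 genes of each list with the smallest p and any called (1 gene under this rule is not reported here), and the 3 most similar genes across cells for 6 of the 9. Alternatives covered the pseudocount, the filters, scaling, Rn45s, averaging of logs, each set left out, Paneth-marker cells and a replicate block.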

Additional observations from a re-analysis of the deposited data

How the results depend on the processing

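With 2 sets per diet and no read depth, counts of calls depended on the processing more than values did. The log2 difference of Tk2 was −1.37 to −1.98 with each set left out in turn. When logs were taken per cell before averaging it was −0.65, where the many cells at 0 weigh more. Under the other settings it was −1.67 to −1.96. The mean of the 5 replication enzymes, 0.61, was 0.93 with logs per cell and 0.45 to 0.77 with each set left out. It was lower, at 0.43, with Rn45s left out and at 0.48 with median-ratio scaling. Under the other settings this mean was 0.61 to 0.66. Over all genes limma called 59 of 11667 as deposited. It called 6 of 12124 without Rn45s in the total, 14 of 11652 with all cells and 67 of 11667 with logs per cell. With no filter on low genes it called 0 of 19092, and 1398 had an unadjusted p under 0.05. The count of members called, 1, became 0 without Rn45s, with all cells, with logs per cell and with no filter. Leaving out a set leaves 1 set of that diet, assumed to vary like the others, and gave 0 to 1, with 0 without HFD 1 and without control 2. The member counted in these settings is Tk2, which was chosen for this difference, so its calls support nothing. Taking the set number as a replicate block gave 5 (Tk2, Rrm1, Rrm2, Tyms and Dut, with limma adjusted p = 0.0287 for Rrm1 and Rrm2, 0.0129 for Tyms and 0.0116 for Dut), where 5.44% of all genes were called. The labels do not say that set numbers pair across diets, and the set 1 minus set 2 differences of the diets correlated at r = 0.233 over 11667 genes, with only 2 pairs. Pathway genes called, 0 of 252, became 27 under the block, where 635 of all 11667 genes were called. They were 4 with logs per cell (Mcm2, Rpa2, Slbp and Tipin), where 67 of 11667 were called. Without Paneth-marker cells they were 2, where 47 of 11637 were called. Without the highest cell of each set, an alternative chosen after seeing the data, they were also 2, where 86 of 11038 were called. The 2 were Ccne1 and Slbp in both. Signs of the small differences turned as follows. With Rn45s left out they were −0.12 for Tk1, −0.089 for Dck and −0.10 for Samhd1, and with median-ratio scaling −0.070, −0.058 and −0.063. With logs per cell they were 0.053 for Rrm2b and −0.12 for Samhd1, and without Paneth-marker cells 0.016 for Rrm2b, which fell under the filter without the highest cell of each set and has no value there. With each set left out, Tk1 ranged from −0.27 to 0.41, Rrm2b from −0.27 to 0.055, Dck from −0.081 to 0.23 and Samhd1 from −0.11 to 0.22. The median of all genes, 0.125, was 0.0013 by median-ratio scaling and −0.048 with Rn45s left out, and calls over all genes split 43 higher and 16 lower as deposited against 25 and 17 by median-ratio scaling. The median r among the replication enzymes, 0.51, was 0.32 in the middle range of genes detected. The cause of these shifts was not tested. The share of cells with Tk2 differed by −14.1 to −9.62 percentage points with each set left out.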

Other observations

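Paired transcripts were seen in unequal company. Cells with Rrm2 almost always held its partner Rrm1. They did so in 47 of 48 and 43 of 44 HFD cells and in 37 of 38 and 29 of 30 control cells. Rrm1 was also found in 67.4% and 68.8% of HFD cells without Rrm2 and in 61.8% and 54.1% of such control cells. Cells with Rrm2 also had more genes detected, with a median of 7054 against 6074 in cells without it. Whether Rrm1 goes with Rrm2 more than other genes do was not tested. All 5 replication enzymes were held at once by 46.2% and 40.2% of HFD cells and by 33.3% and 27.5% of control cells, and cells with none of the 5 numbered 0 and 0 in the HFD sets and 0 and 2 in the control sets. Tk1 was found in 10 of 12 and 5 of 8 HFD cells with Tk2 and in 16 of 23 and 12 of 19 control cells with Tk2, against 64.6% and 61.9% of HFD cells and 67.1% and 58.3% of control cells without Tk2, so that the share with Tk1 was higher beside Tk2 in each of the 4 sets, on few cells and with no test. Tk2 and Rrm2b were found in the same cell in 1 and 1 HFD cells and in 3 and 1 control cells.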
